A study of Mus musculus with 12 samples.

Results

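The oxytocin and vasopressin system was described through 4 genes: *Oxt* and *Avp*, which encode the prohormones of oxytocin and arginine vasopressin, and *Oxtr* and *Avpr1a*, which encode the oxytocin receptor and the V1a vasopressin receptor. The rule lists the genes by name. Each had 1 probe set with a single gene symbol on the array, and all 4 were among the 14953 genes tested, out of 19938 genes with such a probe set. The samples were hypothalami of male mice of the C57BL/6J strain, 23 weeks of age, made obese by 20 weeks on a 45% fat diet that began at 3 weeks. Every mouse, the controls included, first received intraperitoneal DMSO for 4 days. For the next 4 days the 3 groups received daily injections of DMSO (the vehicle), of 100 µg/kg celastrol or of 2 mg/kg withaferin A, with 4 biological replicates and 4 arrays per group. Celastrol is a plant triterpenoid and withaferin A a plant steroidal lactone, and the doses of the compounds differ. All groups shared the diet and the injections, and no lean or uninjected group was used here.

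Oxytocin and vasopressin are cyclic peptide hormones made mainly by magnocellular neurons of the paraventricular and supraoptic nuclei, which send axons to the posterior pituitary, and by smaller neurons that project within the brain. Vasopressin is also made in the suprachiasmatic nucleus, the central clock. Each peptide is cut from a prohormone that also holds its carrier, a neurophysin, and is stored in dense-core granules. Oxytocin acts in birth, lactation, social behaviour and the restraint of feeding, and vasopressin in water balance, blood pressure and, together with CRH, the release of ACTH. The oxytocin receptor and the V1a receptor both couple to Gq and phospholipase C.

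*Oxt* and *Avp* are neighbours on mouse chromosome 2, on opposite strands, with 0 tested genes between them in the RefSeq gene table (GRCm38.p6). The 250 bases before the start of each gene are shown because the hormone genes are the members with the largest differences between groups. The sequences are RefSeq's, read 5′ to 3′ in the direction of transcription. *Oxt* lies on the plus strand (chr2:130575919-130576168) and *Avp* on the minus strand (chr2:130582589-130582838), both in GRCm38.p6. Capitals mark GGTCA, a nuclear receptor half-site, on either strand in *Oxt*, and CACGTG, an E-box, in *Avp*.
Oxt: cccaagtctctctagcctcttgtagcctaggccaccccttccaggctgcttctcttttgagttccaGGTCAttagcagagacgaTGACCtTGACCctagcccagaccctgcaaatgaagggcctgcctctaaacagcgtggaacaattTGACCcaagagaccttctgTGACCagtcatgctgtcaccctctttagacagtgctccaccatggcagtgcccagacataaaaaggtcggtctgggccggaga
Avp: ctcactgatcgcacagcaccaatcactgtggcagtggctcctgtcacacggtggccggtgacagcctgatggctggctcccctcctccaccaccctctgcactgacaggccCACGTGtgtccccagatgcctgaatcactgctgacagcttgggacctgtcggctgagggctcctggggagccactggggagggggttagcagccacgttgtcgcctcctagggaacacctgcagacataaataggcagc
The *Oxt* window held 5 matches to GGTCA, with first bases 184, 166, 160, 102 and 83 bases before the start, while the *Avp* window held 0. Of the 32851 mouse promoter windows of this length in the table, 35.2% held at least 1 such match and 0.0426% held 5 or more. CACGTG stood once in *Avp*, 139 bases before the start, and once in *Oxtr*, 43 bases before it, and 6.02% of windows held it. AGAACA, a glucocorticoid response half-site, had 0 matches in the windows of all 4 genes and was in 16.1% of windows. TGACG, part of a cAMP response element, had 1 match, in *Avpr1a*, and was in 17.8% of windows. Each motif was searched on both strands, and the counts describe these letters in these windows only.

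Values are log2 signals, on which a difference of 1 is a doubling. The array medians lay between 6.89 and 6.98 and the correlations between arrays over all probe sets between 0.981 and 0.994; 0 pairs of arrays held identical values. Of the 10 hypothalamic markers listed, such as *Hcrt* and *Pmch*, 9 had a single-symbol probe set, and all 9 were above the level under which genes were left out as dim (a mean log2 signal of 5.81). Markers of the thalamus, which borders the hypothalamus, differed between arrays of every group: the mean of 9 such genes, as the deviation from the mean of the 12 arrays, ran from −0.55 to 0.43 for DMSO, from −0.25 to 0.63 for celastrol and from −0.39 to 0.38 for withaferin A. Celastrol replicate 2 stood apart in pituitary markers. The mean deviation of the 7 tested pituitary markers was 1.52 on that array and 0.02 to 0.06 on the other 3 celastrol arrays. It lay between −0.47 and −0.23 for DMSO and between −0.22 and 0.05 for withaferin A.

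*Oxt*, the oxytocin gene, was lower on every celastrol array than on any DMSO array. Its log2 signal was 11.51, 11.53, 11.56 and 11.56 on DMSO replicates 1 to 4. It was 11.34, 11.11, 10.99 and 11.12 on celastrol replicates 1 to 4, and 11.33, 11.31, 11.42 and 11.37 on withaferin A replicates 1 to 4. The DMSO arrays lay together above all 8 arrays of treated mice, and celastrol replicate 1 alone of the celastrol arrays reached the withaferin A values. The group means were 11.54 ± 0.03 (SD, n = 4) for DMSO, 11.14 ± 0.15 for celastrol and 11.36 ± 0.05 for withaferin A, so the celastrol arrays differed among themselves more than the others did.

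**Figure D1:**
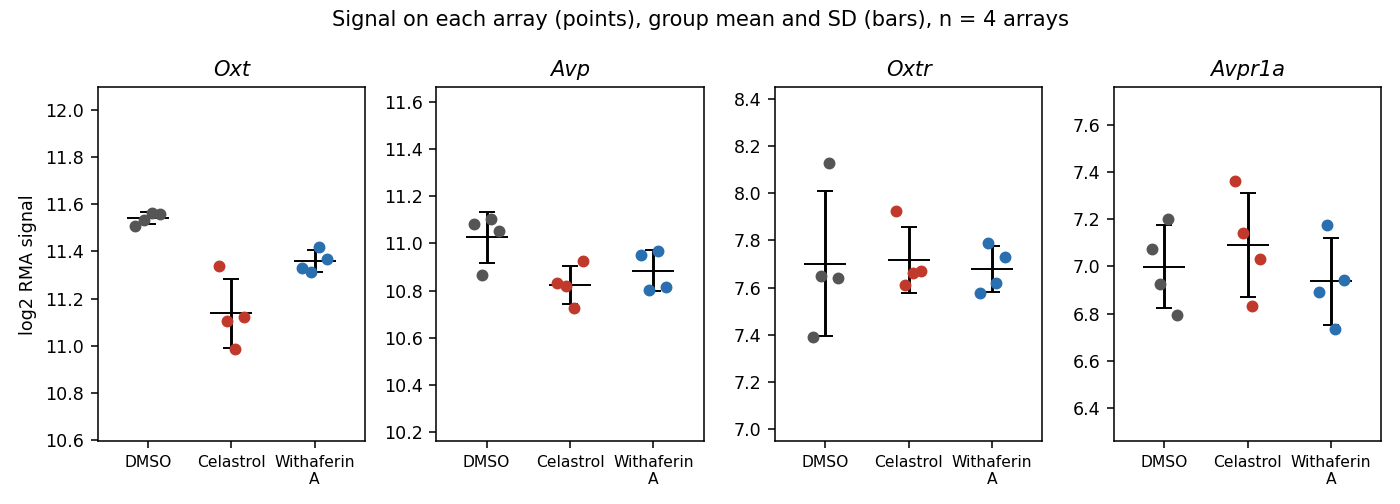
Log2 RMA signal (vertical axis) of Oxt, Avp, Oxtr and Avpr1a on each of the 12 arrays, by treatment group (horizontal axis). Points are single arrays, and bars give the group mean and SD (n = 4); every panel spans the same range of log2 units. The 4 DMSO arrays lie above all 8 arrays of treated mice for Oxt, while the 3 groups overlap for Oxtr and Avpr1a.

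*Oxt* fell after celastrol by 0.40 ± 0.07 on the log2 scale (SE; 95% interval −0.54 to −0.26), or 1.32-fold, with an adjusted p of 0.0179 in limma's test over all 14953 genes. By p it ranked 27 of 14953. It was the 1 member of 4 that passed in this comparison, in which 0.314% of all tested genes passed with a lower signal, 0.455% with a higher one and 0.769% in either direction. The call rested on single arrays: it was lost without DMSO replicate 1 (adjusted p = 0.0511), DMSO replicate 2 (0.0682), DMSO replicate 4 (0.0603), celastrol replicate 2 (0.0652) or celastrol replicate 3 (0.0596), and the difference itself stayed between −0.47 and −0.35 with any array left out. The pooled SE also covers groups of unequal spread. The exact two-sided permutation test over 4 and 4 arrays, which uses the spread of this gene alone, gave p = 0.0286, the smallest it can give, and 0.171 adjusted over the 12 tests of members. The adjusted value could fall under 0.05 only if most of the 12 tests reached that smallest p, so it decides nothing about *Oxt*.

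Markers of other cells moved with this comparison. The pituitary marker means of celastrol and DMSO arrays did not overlap, and 7 of 7 tested pituitary markers had a positive difference. Of all tested genes 57.4% had a negative one. Of the 7 markers 0 passed and 0 had a higher range without overlap. Their differences ran from 0.003 for *Pitx1* to 1.81 for *Gh*. With the pituitary marker mean as a covariate *Oxt* had a difference of −0.38 ± 0.09, with adjusted p = 0.179 in limma's test, and 0 of all genes passed. Since the groups do not overlap in this covariate, it and the treatment cannot be told apart. The SE of *Oxt* was 0.07 without it. Without celastrol replicate 2, *Oxt* had a difference of −0.39. Oligodendrocyte markers also did not overlap: their mean deviation was 0.09 to 0.19 on DMSO arrays and −0.14 to −0.09 on celastrol arrays. Of the 7 oligodendrocyte genes tested, 2 fell, *Opalin* (−1.003 ± 0.18, adjusted p = 0.0229 in limma's test) and *Sox10* (−0.39 ± 0.08, adjusted p = 0.0433), and 5 did not pass. Among these 5, *Mobp* had a difference of 0.31 ± 0.08 without overlap, and *Mbp* and *Cnp* overlapped. *Mog* (−0.20 ± 0.07) and *Mag* (−0.21 ± 0.06) were lower without overlap. Of 6 endothelial genes *Slc2a1* rose (0.75 ± 0.15, adjusted p = 0.0384), *Tek* fell (−0.55 ± 0.11, adjusted p = 0.0450) and 4 did not pass. The part of the oligodendrocyte and endothelial genes in the *Oxt* result was not tested. The neuronal marker means overlapped, with −0.03 to 0.07 on DMSO arrays and −0.06 to 0.04 on celastrol arrays. Hypothalamic marker means overlapped too, with −0.07 to 0.12 and −0.09 to 0.10. Of these 9 hypothalamic genes 7 had a negative difference, against 57.4% of all tested genes, with a median of −0.10. *Pomc* had the highest, 0.63 ± 0.25 without overlap, and did not pass (adjusted p = 0.356 in limma's test). It stood at 9.25 and 9.34 on celastrol replicates 2 and 3, and at 8.28 and 8.36 on replicates 1 and 4. Celastrol replicate 2 is also the array that stood apart in pituitary markers. In this bulk tissue, fewer oxytocin neurons in the dissected piece and less *Oxt* RNA per neuron cannot be told apart.

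After withaferin A, *Oxt* had a difference of −0.18 ± 0.07 (95% interval −0.32 to −0.04) and did not pass, with an adjusted p of 0.238 in limma's test. The group ranges did not overlap, which held for 4.69% of all tested genes with a lower signal after withaferin A and for 4.5% after celastrol. No gene passed in this comparison (0% of 14953, with 2352 genes at an unadjusted p under 0.05); without DMSO replicate 3, 172 genes passed, *Oxt* not among them. The exact permutation p was again 0.0286, the smallest possible, and 0.171 adjusted over the 12 tests, with the same limit. Over 24 alternatives the difference ran from −0.23 to −0.11, the latter with renewed quantile normalization. Marker means moved here too, without overlap with DMSO: the oligodendrocyte mean deviation was −0.13 to 0.06 and the pituitary one −0.22 to 0.05, with 7 of 7 pituitary markers at a positive difference and 0 past the threshold. Of all tested genes 51.5% had a negative difference. With the pituitary mean as a covariate the *Oxt* difference was −0.18, and here too covariate and treatment cannot be told apart. The part of the oligodendrocyte genes was not tested. Both comparisons with the vehicle share the same 4 DMSO arrays. Compared directly, the withaferin A arrays had a mean higher by 0.22 ± 0.07 than the celastrol arrays (95% interval 0.08 to 0.36). This difference did not pass over all genes (adjusted p = 0.178 in limma's test; 0.0468% of genes passed), and the exact permutation p was 0.0857. The doses differ, so the values stand side by side and do not rank the compounds.

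*Avp*, the vasopressin gene, had lower means in both treated groups, and neither difference passed. Its log2 signal was 11.08, 10.87, 11.10 and 11.05 on DMSO replicates 1 to 4, with a mean of 11.03 ± 0.11 (SD, n = 4). It was 10.83, 10.82, 10.73 and 10.92 on the celastrol arrays, with a mean of 10.82 ± 0.08. The withaferin A arrays had 10.95, 10.80, 10.97 and 10.82, with a mean of 10.88 ± 0.09. DMSO replicate 2 lay among the treated arrays, whereas the other 3 DMSO arrays lay above all 8 of them. The difference was −0.20 ± 0.07 for celastrol (95% interval −0.35 to −0.06) and −0.14 ± 0.07 for withaferin A (−0.29 to 0.00), with adjusted p of 0.24 and 0.326 in limma's test. Without DMSO replicate 2 the values were −0.25 and −0.19, with adjusted p of 0.183 and 0.340. Renewed quantile normalization brought the withaferin A difference to −0.08. Withaferin A and celastrol arrays differed by 0.06 ± 0.07 (95% interval −0.08 to 0.20), and their ranges overlapped.

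**Figure D2:**
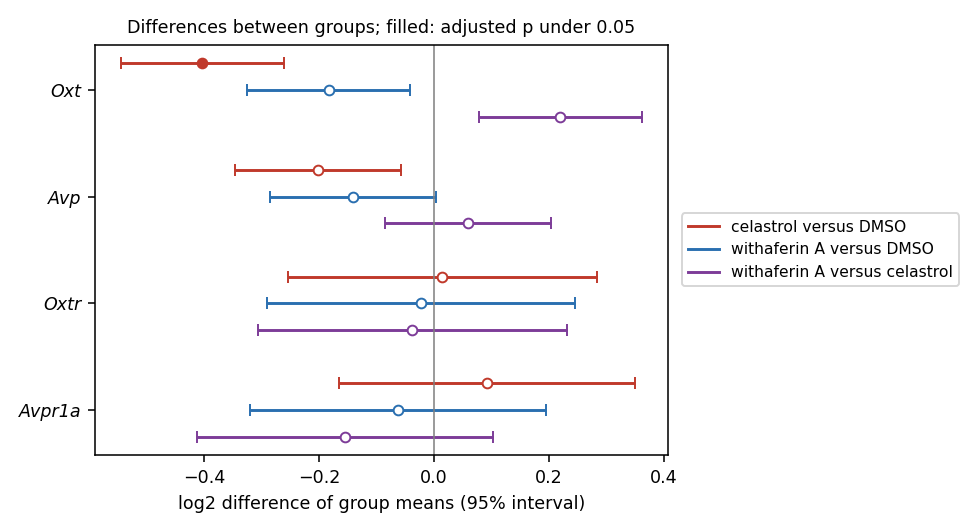
Difference of group means on the log2 scale (horizontal axis) for each gene in the 3 comparisons, with 95% intervals from limma; filled points passed an adjusted p of 0.05. The Oxt difference after celastrol, −0.40, is the filled point, and all 3 intervals of Oxtr and of Avpr1a span 0.

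The receptor genes varied between arrays more than between groups. *Oxtr* had a log2 signal of 7.39, 7.65, 8.13 and 7.64 on DMSO replicates 1 to 4, the widest spread of any member in any group (SD 0.31). The celastrol arrays had 7.92, 7.61, 7.66 and 7.67, and the withaferin A arrays 7.58, 7.79, 7.62 and 7.73. All treated arrays lay within the range of the DMSO arrays. The difference was 0.01 ± 0.12 for celastrol (95% interval −0.25 to 0.28) and −0.02 ± 0.12 for withaferin A (−0.29 to 0.25), with adjusted p of 0.981 and 0.942 in limma's test. Both intervals are wide enough to hold a change of the size measured for *Avp*. The sign of both turned when single arrays were left out, so *Oxtr* has no direction here.

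*Avpr1a* had a log2 signal of 7.08, 6.93, 7.20 and 6.80 on the DMSO arrays, 7.36, 7.14, 6.83 and 7.03 on the celastrol arrays and 6.89, 7.18, 6.73 and 6.94 on the withaferin A arrays. The 3 groups overlapped, and all of them spanned the range from 6.83 to 7.18. The difference was 0.09 ± 0.12 for celastrol (95% interval −0.17 to 0.35) and −0.06 ± 0.12 for withaferin A (−0.32 to 0.20), with adjusted p of 0.858 and 0.826 in limma's test. Withaferin A against celastrol had −0.15 ± 0.12 (−0.41 to 0.10; adjusted p = 0.532). *Avpr1b*, the pituitary V1b receptor gene, and *Avpr2*, the kidney V2 receptor gene, were also tested and did not pass in any comparison. Their group means, 5.88 to 6.10 and 5.81 to 5.86, lay near the dim cut of 5.81, so this says little about them.

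Since *Oxt* and *Avp* are paralogues that lie side by side, the sizes of their changes were set against each other through the difference of both signals on each array. Only changes in this difference between groups can be read, because levels of separate probe sets are not on a common scale. After celastrol the change of *Oxt* less that of *Avp* was −0.20 on the log2 scale (exact two-sided permutation p = 0.114, and 0.171 adjusted over the 3 comparisons), and the groups overlapped. After withaferin A it was −0.04 (p = 0.543 in the exact permutation test). Without celastrol replicate 1, the array with the highest *Oxt* of its group, the celastrol difference of changes was −0.27, with an exact permutation p of 0.0429 adjusted over the 3 comparisons. Between withaferin A and celastrol the difference of changes was 0.16 (exact permutation p = 0.0857, adjusted 0.171), and 0.22 without that array (adjusted 0.0429). In both comparisons this omission was the 1 of 13 alternatives that passed. Celastrol replicate 1 also had the highest *Oxt* less *Avp* of its group, 0.51. The other celastrol arrays lay below all arrays of both other groups in this measure. Without celastrol replicate 1 the exact p was therefore the smallest the test can give in both comparisons. Fitted with limma as 1 more row of the table of all genes, the celastrol value had a 95% interval of −0.36 to −0.04 (adjusted p = 0.0517 over the 3 comparisons). The value between the compounds had one of 0.00 to 0.32 (adjusted p = 0.0748 in limma's test). With all arrays used, neither test passed after adjustment. The exact test could not have passed for 1 comparison alone, since its smallest p does not stay under 0.05 when adjusted over 3.

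**Figure D3:**
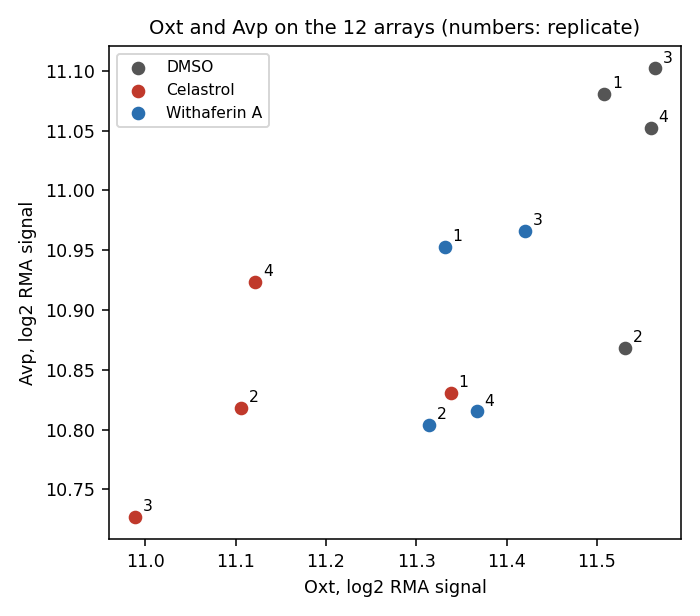
Oxt (horizontal axis) against Avp (vertical axis), both as log2 RMA signal, on the 12 arrays; colours give the treatment group and numbers the replicate. DMSO arrays 1, 3 and 4 stand at the upper right, celastrol arrays 2 and 3 at the lower left, and DMSO replicate 2 pairs a high Oxt with a low Avp.

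Across the 12 arrays *Oxt* and *Avp* had a Pearson r of 0.72 (permutation p = 0.00923, and 0.0554 adjusted over the 6 pairs of members) and a Spearman rho of 0.75 (permutation p = 0.00681, adjusted 0.0409). Without celastrol replicates 2 and 3, the arrays farthest from the median of *Oxt*, r was 0.55 (permutation p = 0.0969). Of the deviations from the group means r was 0.30 (permutation p = 0.351), so the relation within groups was not shown, and 4 arrays per group are too few for an r of their own. *Oxtr* and *Avpr1a* had r = 0.52 and rho = 0.52 (permutation p = 0.0789 and 0.0845), and r = 0.024 without DMSO replicate 3 and celastrol replicate 1. The other 4 pairs, each a hormone gene with a receptor gene, had r from −0.07 to 0.14, with adjusted permutation p of 0.977 each.

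The genes whose signal followed a member most closely over the 12 arrays were named by the highest Pearson r, as a description. The arrays share their treatment, so the r of deviations from group means is given with it. For *Oxt* they were *Coro1c*, a coronin of the actin skeleton (r = 0.93, deviations 0.57), *Ecel1*, a neuronal endothelin-converting enzyme-like protease (0.92, 0.71), *Ampd2*, an AMP deaminase (0.92, 0.73), *Pipox*, a peroxisomal oxidase (0.91, 0.54), and *Slc6a6*, the taurine transporter (0.91, 0.57). For *Avp* they were *Reln*, which encodes reelin (0.88, 0.74), *Zswim1* (0.87, 0.71), the histone gene *H2ac15* (0.86, 0.80), *Tmbim6*, of the ER membrane (0.86, 0.69), and *Scd2*, a fatty acid desaturase (0.85, 0.73). The lists of the hormone genes held 0 genes in common. For *Oxtr* the highest were *Gm15998* (0.90), *Ucma* (0.87) and *Vax2* (0.86), and for *Avpr1a* *Ift22* (0.89), *Nudcd2* (0.86) and *Coch* (0.86), with r of deviations from 0.87 to 0.92 for all 6. These are the highest of 14953 values for each member and are no test. A gene that follows *Oxt* over these arrays shares its group differences through that choice.

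The genes on either side of the pair on chromosome 2 did not pass. Of the 5 nearest tested genes on each side, 0 of 10 passed in any of the 3 comparisons. Of all tested genes 0.769% passed after celastrol, 0% after withaferin A and 0.0468% between the compounds. The count therefore does not set the neighbours apart from other genes. Their differences after celastrol ran from −0.14 for *Ddrgk1* to 0.18 for *Mrps26*, and the smallest p was that of *4930402H24Rik* (−0.13 ± 0.06, adjusted p = 0.474 in limma's test).

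Other genes of the system were taken from 6 lists of 76 genes in all, of which 71 were tested. After celastrol 1 of the 71 fell, 0 rose and 70 did not pass; the median difference was −0.06, against −0.02 over all tested genes. Of all tested genes 0.314% passed with a lower signal and 0.769% in either direction. After withaferin A 0 passed (3 without DMSO replicate 3), with a median of −0.07 against 0.00. Between withaferin A and celastrol 0 passed. Lower ranges that did not overlap those of DMSO were seen for 10 of the 71 genes after celastrol (14.1%, against 4.5% of all tested genes) and for 11 after withaferin A (15.5%, against 4.69%). Higher ranges without overlap were seen for 1 of the 71 genes after celastrol and 0 after withaferin A, against 2.71% and 2.91% of all tested genes. Many of these genes mark the same nuclei and are not independent of one another. The lists were also chosen with earlier results of these data known, so these shares are a description and no test.

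The 1 pathway gene that fell was *Slc6a6*, the transporter of taurine, an amino acid that glia around magnocellular neurons release as an osmotic signal. Its log2 signal was 10.31, 10.21, 10.26 and 10.28 on the DMSO arrays, 9.98, 9.89, 9.67 and 9.86 on the celastrol arrays and 9.88, 10.18, 10.05 and 10.09 on the withaferin A arrays. All 8 treated arrays lay below the 4 DMSO arrays. It fell after celastrol by 0.42 ± 0.07 (adjusted p = 0.0234 in limma's test) and had a difference of −0.22 ± 0.07 after withaferin A (adjusted p = 0.226). The celastrol call was lost without any 1 DMSO array (adjusted p from 0.0566 to 0.0843), celastrol replicate 2 (0.0654) or celastrol replicate 3 (0.0725), while the difference stayed between −0.46 and −0.36. It was also lost with every probe set tested (0.122), with the pituitary markers as a covariate (−0.46, 0.164) and with a replicate block (0.0667). The other 9 tested genes of osmosensing and osmolytes did not pass. The ion channel gene *Trpv4* had 0.13 ± 0.10 after celastrol (adjusted p = 0.718), and *Trpv1*, another channel of the family, 0.33 ± 0.10 after withaferin A (adjusted p = 0.195). *Trpv1* passed without DMSO replicate 3 (0.43, adjusted p = 0.0474 in limma's test). Its means were 5.784 on DMSO and 5.807 on celastrol arrays, both under the dim cut of 5.810. Only the withaferin A mean of 6.11 brought the gene above that cut, so its pass is no support for a rise. The medians of the list were −0.04 and −0.08, the latter −0.13 with median centring and −0.037 with renewed quantile normalization.

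Prohormone processing and granule genes are those that cut, amidate and store the peptides. Of the 11 tested, 0 passed in either comparison with DMSO, 9 had a negative difference after celastrol and 10 after withaferin A, against 57.4% and 51.5% of all tested genes. The medians were −0.09 and −0.08, the latter −0.12 with median centring and −0.017 with renewed quantile normalization. *Vgf*, which encodes a granule protein that is also cut into peptides, had 9.23, 9.36, 9.44 and 9.20 on the DMSO arrays and 9.15, 8.85, 8.82 and 9.06 on the celastrol arrays, with no overlap. Its difference was −0.34 ± 0.08 (adjusted p = 0.0789 in limma's test), and it passed in several alternatives, such as without celastrol replicate 1 (−0.40, adjusted p = 0.0492). *Chgb*, chromogranin B, had −0.15 ± 0.05 after celastrol and −0.22 ± 0.05 after withaferin A (adjusted p = 0.243 and 0.155). *Scg2*, secretogranin II, had −0.14 ± 0.05 after withaferin A (adjusted p = 0.265).

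The other peptides and enzymes of the paraventricular and supraoptic nuclei, 13 genes that include *Crh* and *Cck*, had the lowest medians of the 6 lists, −0.12 after celastrol and −0.17 after withaferin A, and 0 passed. *Trh*, thyrotropin-releasing hormone, had 10.45, 10.38, 10.39 and 10.50 on the DMSO arrays, 10.19, 10.28, 10.06 and 10.30 on the celastrol arrays and 10.24, 10.13, 10.20 and 10.17 on the withaferin A arrays. The DMSO arrays lay above all others, with differences of −0.22 ± 0.06 and −0.25 ± 0.06 (adjusted p = 0.128 and 0.155 in limma's test). *Sst*, somatostatin, likewise had its 4 DMSO arrays above all 8 others, with −0.18 ± 0.05 and −0.20 ± 0.05 (adjusted p = 0.132 and 0.163). The mean signal of this list ran from 9.72 to 9.80 for DMSO, from 9.52 to 9.69 for celastrol and from 9.59 to 9.67 for withaferin A. Celastrol replicate 4 weighs on it: without that array the celastrol median was −0.18.

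**Figure D4:**
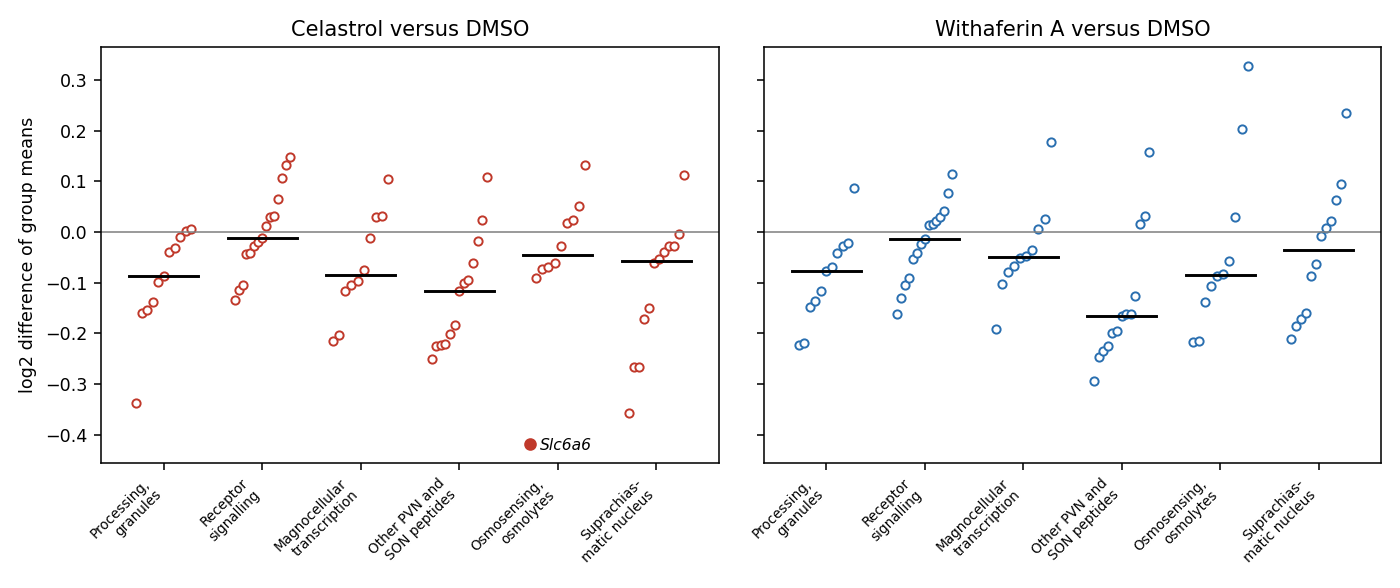
Difference of group means on the log2 scale (vertical axis) for each tested gene of the 6 lists (horizontal axis), for celastrol (left) and withaferin A (right) against the same 4 DMSO arrays; black lines are list medians, and filled points passed an adjusted p of 0.05. Slc6a6 at −0.42 is the filled point, and the paraventricular and supraoptic (PVN and SON) peptide list has the lowest median in both panels.

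The transcription factors and maintenance genes of magnocellular neurons had medians of −0.09 and −0.05 (the latter −0.094 with median centring), and 0 of 10 passed. *Otp*, needed for the development of these neurons, had −0.20 ± 0.08 after celastrol (adjusted p = 0.36 in limma's test). *Sim1*, with the same role, had −0.19 ± 0.06 after withaferin A (adjusted p = 0.192). *Pou3f2*, a POU factor of the same neurons, had −0.22 ± 0.12 after celastrol and 0.18 ± 0.12 after withaferin A, and neither passed (adjusted p = 0.55 and 0.47). Its other probe set had −0.05 ± 0.16 and −0.45 ± 0.16 in a fit of all probe sets, so the probe sets disagree after withaferin A.

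The 15 tested genes of receptor signalling, hormone release and breakdown had medians of −0.01 in both comparisons, and 0 passed; the withaferin A median was 0.031 with renewed quantile normalization and −0.060 with median centring. *Arrb2*, which encodes a beta-arrestin, a protein that ends receptor signalling, had −0.11 ± 0.04 and −0.13 ± 0.04 (adjusted p = 0.336 and 0.215 in limma's test). The list's other beta-arrestin gene, *Arrb1*, had 0.03 ± 0.05 and −0.01 ± 0.05. The phospholipase gene *Plcb1* had 0.15 ± 0.06 after celastrol (adjusted p = 0.399) and the protein kinase C gene *Prkcb* −0.09 ± 0.05 after withaferin A (adjusted p = 0.352). The 12 suprachiasmatic genes, tested because *Avp* is also a product of that nucleus, had medians of −0.06 and −0.04, and 0 passed. *Lhx1*, a transcription factor of that nucleus, had −0.27 ± 0.08 and −0.21 ± 0.08 (adjusted p = 0.215 and 0.264). The peptide genes *Nms* and *Prok2* had −0.36 ± 0.14 after celastrol and 0.23 ± 0.11 after withaferin A (adjusted p = 0.368 and 0.326).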

How the data were processed

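Hypothalamic RNA was measured on 12 one-colour Affymetrix arrays. Per the labels, biotin-labelled material was hybridised, 1 array per sample, and the submitters' processing notes name RMA; its version and annotation are not given in the sources used here. The values the authors deposited are log2 signals of 35556 probe sets, 2.64 to 15.08.

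Probe sets with 1 gene symbol (21789) stood for 19938 genes; the one with the highest mean was used. Genes with a mean under the 25th percentile were left out as dim. Group means were fitted with limma 3.58.1 (R 4.3.3; 9 residual degrees of freedom, prior 4.44), with Benjamini-Hochberg adjustment over 14953 genes and a threshold of 0.05. All tests are two-sided. P-values measure the spread between arrays labelled biological replicates; whether mice were pooled is not stated. Exact permutation tests (70 arrangements with all arrays used, fewer with an array left out) and 100000-resample correlation tests used numpy 2.4.6. The steps were tested on simulated data. Plots used matplotlib 3.10.9.

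Named genes were the 4 members, list genes past the threshold, the 2 genes of smallest p per list in each comparison with DMSO, and the genes most like each member. The members and lists were chosen with earlier results of these data known. The number of arrays limits the precision.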

Additional observations from a re-analysis of the deposited data

Results flagged for a closer look

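In 63 groups of 4 arrays (21 named genes, 3 treatments), 1 array stood far from the other 3 of its group by Dixon's criterion, where chance gives about 1 in 20. *Otp*, a transcription factor gene of magnocellular neurons, had a log2 signal of 8.99 on celastrol replicate 1, against 8.81 to 8.84 on the other celastrol arrays. The same array had the highest *Oxt* of its group, 11.34. Without it the *Otp* difference after celastrol was −0.24.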

How the results depend on the processing

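The sign of *Oxt* and of *Avp* held in all 24 alternatives of each comparison, and *Avp* passed in 0 of them. After withaferin A, the differences ran from −0.23 to −0.11 for *Oxt* and from −0.19 to −0.08 for *Avp*. The values −0.11 and −0.08 came with renewed quantile normalization. *Oxt* after celastrol passed in 16 of 24, with adjusted p from 0.00271 to 0.179. It did not pass with every probe set tested (−0.40, adjusted p = 0.105), with pituitary markers as a covariate (−0.38, 0.179) or with 5 single arrays left out (−0.47 to −0.35 over all single arrays). With a replicate block it had −0.40 and adjusted p = 0.0519. Same-numbered arrays had correlations of deviations from −0.28 to 0.12, 2 of 12 pairs above 0.1, and 1 of 12 arrays matched its own number best. Whether same-numbered arrays share a day or batch is not stated, and these correlations cannot exclude it. Under the block 54 genes and 0 pathway genes passed after celastrol.

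*Oxtr* turned sign: −0.089 to 0.16 after celastrol, −0.13 to 0.12 after withaferin A and −0.074 to 0.032 between the compounds with single arrays left out, and 0.044 with array weights and 0.011 without celastrol replicate 2 and withaferin A replicate 1 (both after withaferin A). *Avpr1a* after withaferin A ran from −0.14 to 0.0047. *Pou3f2* after withaferin A was −0.14 as the mean of its probe sets.

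The change of *Oxt* less that of *Avp* ran from −0.27 to −0.15, −0.071 to 0.0077 and 0.12 to 0.22 with single arrays left out. The r of deviations was 0.44 for *Oxt* and *Avpr1a*, 0.0021 for *Avp* and *Oxtr* and 0.042 for *Avp* and *Avpr1a*.

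Genes passing after celastrol (115) numbered 60 without a dim filter, 5 with every probe set, 195 with an intensity trend, 219 with array weights, 182 with 8 arrays, 0 with the covariate and 6 to 207 with single arrays left out. After withaferin A (0) they were 8 with the trend, 21 with array weights and 0 to 172. Between the compounds (7) they were 11 without a filter, 13 with the 50th percentile filter, 0 with every probe set, 12 with median centring, 29 with the trend, 19 with array weights, 0 with 8 arrays, 0 with the covariate, 17 without the pair of arrays and 0 to 56. Pathway genes passing after celastrol (1) were 2 with the 50th percentile filter, median centring or array weights, 4 with the trend, 0 with every probe set or the covariate and 0 to 3, and after withaferin A (0) 0 to 3.

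Of 288 list medians 279 moved by less than the spread between arrays. After withaferin A, renewed quantile normalization gave −0.017 for processing, 0.031 for receptor signalling and −0.037 for osmosensing, and median centring −0.12, −0.060 and −0.13, and −0.094 for magnocellular transcription. The peptide list after celastrol was −0.18 with the covariate and −0.18 to −0.11 with single arrays left out. The causes were not tested.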
